A study of Mus musculus with 4 samples.

Results

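Aldh1a3, Ldha, Slc16a1, Hk1, Hk2 and Acot7 were examined in single cells of mouse pancreatic islets. These 6 genes, of 32285 in the deposited matrix, were chosen by name: 5 belong to the genes described as disallowed in beta cells, and Aldh1a3 is used as a marker of beta cells that lose their mature state. Each was measured in every class of islet cell and in each of 4 libraries. The mice were 5 weeks old, on the NOD background per the series title, and fell into 2 groups of 2 samples, Xbp1{beta}-/- and Xbp1fl/fl. Both groups had received tamoxifen (10 mg/ml, intraperitoneally, on 5 consecutive days), so the drug is common to all samples. The sources used here do not name the Cre driver. Islets were hand-picked, kept overnight in culture, dissociated with accutase and run on the 10x platform.

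Each cell barcode carries a number from 1 to 4, called here its library, and 0 of these 4 numbers match a label of a sample. No library could be tied to a genotype, so Xbp1{beta}-/- and Xbp1fl/fl cells were not compared and no test between libraries was run. Values are given library by library. A level is the gene's share of all unique molecular identifiers (UMIs) of a class in a library, as CPM (its UMIs scaled to a fixed total). Its 95% interval is an exact Poisson interval and covers counting error only, not differences between animals.

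Disallowed genes are active in most tissues and kept very low in mature beta cells. Beta cells release insulin according to how fast they break glucose down, and send the pyruvate it yields to the mitochondria. Hexokinases of high affinity, lactate dehydrogenase and plasma membrane transporters of pyruvate and lactate would let insulin release respond to low glucose or to pyruvate from exercising muscle, and keeping them low is regarded as a part of beta cell identity. ALDH1A3, an enzyme that makes retinoic acid from retinaldehyde, is in contrast known for its rise in beta cells of diabetic mice.

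Cells were sorted into classes by their hormone transcripts. A beta cell had at least 5% of its UMIs from Ins2, an alpha cell at least 5% from Gcg and a delta cell at least 3% from Sst, and each passed no other hormone cut. Beta cells were split at an Spp1 share of 0.5%, and non-endocrine cells passed no hormone cut. The low-Spp1 beta cells numbered 233, 3191, 355 and 1991 in libraries 1 to 4, the high-Spp1 beta cells 354, 131, 374 and 219. There were 246, 729, 283 and 683 alpha cells, 217, 413, 322 and 391 delta cells, and 2477, 401, 1924 and 212 non-endocrine cells. As sums, the beta and delta markers that took no part in the cuts followed the names. The 6 other beta markers (Ins1, Iapp, Mafa, G6pc2, Slc2a2 and Nkx6-1) summed to between 179035 and 214074 CPM in low-Spp1 beta cells and to between 4381 and 13793 CPM in non-endocrine cells, and the 5 other alpha markers summed to between 4466 and 6371 CPM in alpha cells. The 3 other delta markers summed to between 6690 and 9280 CPM in delta cells. In low-Spp1 beta cells they summed to between 86.4 and 320 CPM. Single genes carried much of these sums: Ins1 was at 105364 to 162039 CPM in low-Spp1 beta cells and Rbp4 at 6366 to 8954 CPM in delta cells. The alpha sum is not set beside other classes here.

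Libraries 1 and 3 stood apart from libraries 2 and 4 in several ways. They held most of the non-endocrine cells and fewer beta cells. Hormone genes took 47.5% and 45.1% of the UMIs of their low-Spp1 beta cells, against 57.8% and 56.7% in libraries 2 and 4. Xbp1 was at 67.7 and 60.2 CPM in these cells of libraries 1 and 3 and at 96.1 CPM in both others, and in high-Spp1 beta cells at 36.3, 92.1, 29.2 and 95.8 CPM in libraries 1 to 4; its level does not name the genotype of a library. The 4 libraries held between 82963911 and 178396311 UMIs, and 2 to 13 barcodes were shared by any pair of them.

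The genes lie on 5 chromosomes of GRCm38 (mm10). Hk1 (ENSMUSG00000037012) is at chr10:62268855-62379908 on the minus strand and Hk2 (ENSMUSG00000000628) at chr6:82725025-82774454, also minus. Ldha (ENSMUSG00000063229) is at chr7:46841475-46855627 on the plus strand, Slc16a1 (ENSMUSG00000032902) at chr3:104638668-104658462, plus, and Acot7 (ENSMUSG00000028937) at chr4:152178134-152271855, plus. Aldh1a3 (ENSMUSG00000015134) is at chr7:66390890-66427517 on the minus strand. The sources used here do not say whether the counting used strand. The antisense gene Hk1os held 115 UMIs against 2884 for Hk1, and Gm17034, antisense to Hk2, held 7 against 4794. Gm43581, within an intron of Slc16a1, held 63 UMIs against 1367 for Slc16a1.

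The promoters of Ldha, Slc16a1 and Hk2 are shown because these genes of lactate and glucose handling were all lower in beta than in non-endocrine cells of every library, and because their first 250 bases upstream hold ACGTG on 1 of the strands. ACGTG is the core of the element bound by hypoxia-inducible factors, and it reads CACGT from the opposite strand. The palindrome CACGTG is the E-box bound by MYC, USF and related factors, and it contains the hypoxia core on both strands. Sequences are from RefSeq (GRCm38.p6), written 5′ to 3′ on the gene's strand, with every match of either motif in capitals. The Ldha stretch, chr7:46845554-46845803, plus strand, holds 2 E-boxes and 1 further CACGT outside them. The Slc16a1 stretch, chr3:104638414-104638663, plus strand, holds 1 E-box. The Hk2 stretch, chr6:82774455-82774704, minus strand, holds CACGT 2 times and no E-box.
Ldha: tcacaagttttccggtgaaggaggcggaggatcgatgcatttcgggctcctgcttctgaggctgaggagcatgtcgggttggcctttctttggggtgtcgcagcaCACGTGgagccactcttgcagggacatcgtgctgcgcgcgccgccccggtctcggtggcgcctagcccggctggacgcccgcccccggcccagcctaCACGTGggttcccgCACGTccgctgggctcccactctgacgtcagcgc
Slc16a1: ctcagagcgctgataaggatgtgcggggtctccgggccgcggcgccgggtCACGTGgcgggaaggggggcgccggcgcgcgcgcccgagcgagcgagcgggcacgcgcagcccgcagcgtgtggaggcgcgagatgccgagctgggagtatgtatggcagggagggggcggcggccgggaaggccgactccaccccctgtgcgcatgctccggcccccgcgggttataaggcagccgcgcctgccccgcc
Hk2: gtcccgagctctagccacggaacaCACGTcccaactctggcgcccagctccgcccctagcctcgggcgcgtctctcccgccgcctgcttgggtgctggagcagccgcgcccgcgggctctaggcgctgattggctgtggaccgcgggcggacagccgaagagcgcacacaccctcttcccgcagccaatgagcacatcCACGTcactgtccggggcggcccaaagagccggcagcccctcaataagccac
On either strand, 16.6% of 32851 RefSeq promoters of this length hold the hypoxia core ACGTG, and 6.02% hold the E-box. The Ldha stretch also holds TGACGTCA, the cyclic AMP response element, found in 1.55% of promoters; it does not overlap the other matches. A second Ldha start, both Hk1 starts and the Acot7 start had 0 matches to either motif in their windows. By symbol, 5 of the 6 genes matched the promoter table; Aldh1a3 did not. A match is a run of letters and was not tested as a binding site.

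All 6 genes were lower in low-Spp1 beta cells than in non-endocrine cells, by at least 2-fold in each of the 4 libraries. Across all 16014 genes tested in this comparison, 21.1% were lower and 4.27% higher by the same rule, 25.3% in all. The median log2 ratio (of CPM + 1) over the libraries was -4.87 for Ldha, -4.72 for Hk1, -4.54 for Hk2, -3.89 for Aldh1a3, -3.87 for Acot7 and -3.21 for Slc16a1. The median of these 6 was -4.21, beside -0.59 over all genes tested. Against alpha cells only Hk1 passed the rule (8.47% of 14315 genes were lower and 2% higher, 10.5% in all). Against delta cells Ldha, Hk2 and Acot7 passed it, all lower in beta cells (6.98% of 14351 genes were lower and 1.44% higher, 8.42% in all). The median ratio of the 6 was -0.77 against alpha cells, beside -0.49 over all genes, and -1.37 against delta cells, beside -0.50. The hormone genes are part of the total that a CPM is taken from. With the hormone genes left out of the totals, the medians over all genes were -0.01, 0.04 and 0.26 against alpha, delta and non-endocrine cells, and the calls of the 6 genes in these 3 comparisons stayed as they were. The share of higher genes among all called moved with this scaling from 19.1% to 51.6% against alpha cells, from 17.1% to 46.1% against delta cells and from 16.8% to 53.4% against non-endocrine cells.

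**Figure D1:**
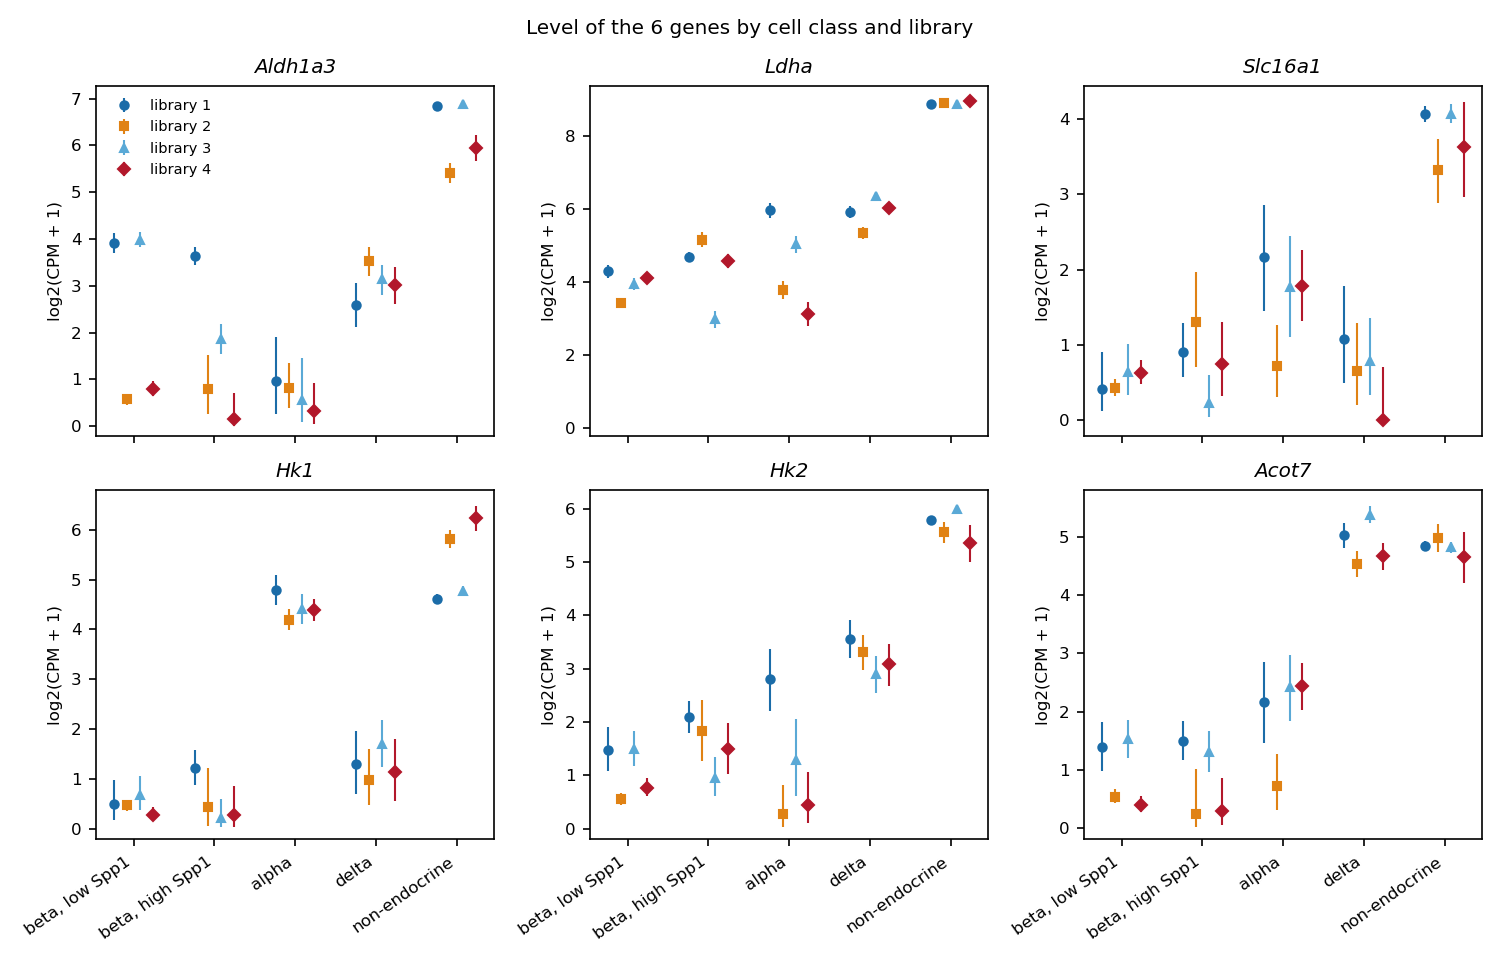
Levels of the 6 genes in 5 classes of islet cell, as log2(CPM + 1); each point is 1 library and each bar its 95% Poisson interval. Among beta, alpha and delta cells Hk1 stands high in alpha cells and Acot7 in delta cells, while all 6 genes are highest or near highest in non-endocrine cells.

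**Figure D2:**
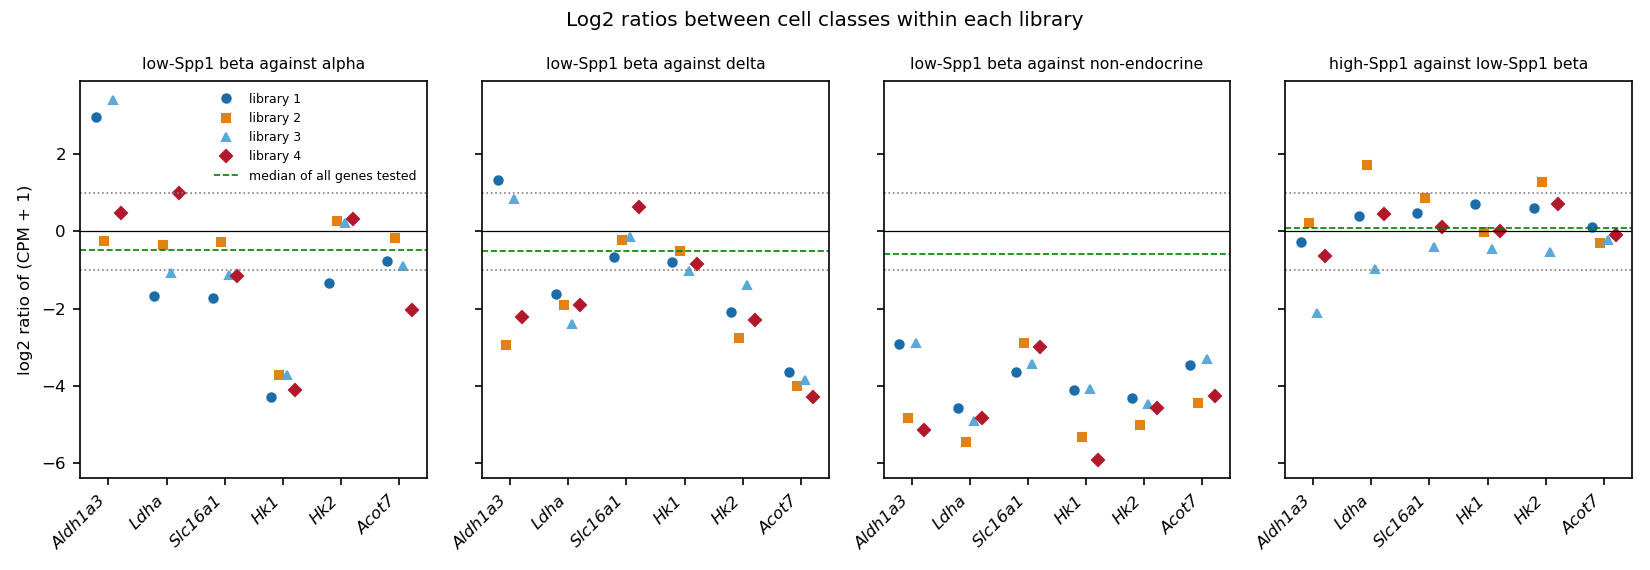
Log2 ratios of CPM + 1 for the 6 genes in 4 comparisons, with 1 point for each library, dotted lines at a 2-fold difference and a green dashed line at the median of all genes tested. Every point of the comparison with non-endocrine cells lies below the lower dotted line, and in the comparison with alpha cells all 4 points do so only for Hk1.

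Hk1, the high-affinity hexokinase found in most tissues, was higher in alpha cells than in beta and delta cells. Cells past the Ppy cut, which entered no comparison, had 11.4, 12.7, 8.03 and 6.83 CPM. In alpha cells Hk1 was at 26.8 CPM (95% interval 21.4 to 33.2), 17.4 CPM (14.8 to 20.3), 20.3 CPM (16.2 to 25.1) and 19.996 CPM (17.0 to 23.3) in libraries 1 to 4. In low-Spp1 beta cells it was at 0.426, 0.392, 0.609 and 0.222 CPM, from 5, 54, 11 and 17 UMIs. Delta cells had 1.49, 0.994, 2.28 and 1.21 CPM. The lowest alpha library was thus above the highest library of either other class, and the delta values lay above all low-Spp1 beta values. The log2 ratio of beta to alpha cells was -4.29, -3.72, -3.72 and -4.10. Non-endocrine cells had 23.5, 55.2, 26.3 and 73.8 CPM, below the alpha value in library 1 and above it in the other 3.

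The Hk1 UMIs of alpha cells were spread over many cells. Hk1 was found in 64, 135, 68 and 134 alpha cells, or 26.0%, 18.5%, 24.0% and 19.6%, and only 15, 21, 14 and 17 of them had more than 1 UMI. Beta cells held more UMIs each, with a median of 37233 to 48053 in low-Spp1 cells against 11137 to 12885 in alpha cells, so cells were also thinned to 5000 UMIs each, leaving out 28, 68, 27 and 48 shallower alpha cells and 14, 148, 26 and 61 beta cells. At that depth Hk1 was seen in 12.4%, 8.32%, 9.38% and 10.1% of alpha cells and in 0%, 0.263%, 0.912% and 0.259% of low-Spp1 beta cells, a class in which the gene should be silent; before thinning the beta shares were 1.29%, 1.28%, 1.97% and 0.653%. As in the CPM values, every alpha share lay above every beta share. In libraries 1 and 3 all 5 and 11 Hk1 UMIs of low-Spp1 beta cells sat in cells with 3 or more markers of a non-endocrine class. In libraries 2 and 4 such cells held 46.3% and 35.3% of them. Among non-endocrine cells Hk1 was highest in the vascular classes: endothelial-like cells had 84.9, 117, 76.4 and 144 CPM and pericyte-like cells 99.4, 176, 67.1 and 112 CPM, with 14 to 20 pericyte-like cells in a library.

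Hk2, the insulin-regulated hexokinase of muscle and fat, followed another pattern and was higher in delta than in beta cells. Delta cells had 10.8, 8.95, 6.47 and 7.45 CPM, and low-Spp1 beta cells 1.79, 0.465, 1.83 and 0.706 CPM. No beta library reached the lowest delta library, and the log2 ratios of beta to delta cells were -2.08, -2.76, -1.40 and -2.31. This call ended when endocrine cells that carried 3 or more markers of a non-endocrine class were left out (-0.93 in library 3). Such cells were 13.6% to 41.0% of delta cells. In that class Krt7 and Ehf (ductal panel) and C1qa (macrophage panel) stood far above the other markers of their panels. The call also ended when each cell's CPM was averaged in place of summed UMIs (-0.74 in library 3). It ended as well with a pseudocount of 10 CPM (median -0.76). A few cells held most of the Hk2 UMIs of delta cells: it was seen in 17, 28, 20 and 23 of them, and the highest 5% of delta cells held between 87.9% and 94.4% of its UMIs. Alpha cells had 5.99, 0.215, 1.45 and 0.368 CPM, the last 3 from 2, 6 and 3 UMIs, and overlapped the beta cells. In library 1 all 19 Hk2 UMIs of alpha cells sat in cells with 3 or more markers of a non-endocrine class. Without such cells alpha cells had 0, 0.238, 0 and 0.136 CPM and low-Spp1 beta cells 0.311, 0.312, 0.138 and 0.705 CPM. Delta cells then had 4.85, 8.27, 1.17 and 8.13 CPM. In non-endocrine cells Hk2 was at 54.2, 46.2, 62.4 and 39.9 CPM, led by fibroblast-like cells (175, 91.7, 179 and 82.9 CPM) and macrophage-like cells (161, 139, 142 and 124 CPM), while endothelial-like cells had only 1.76 to 8.59 CPM.

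Ldha, the subunit of lactate dehydrogenase that prevails in muscle, was lower in beta than in delta and non-endocrine cells. In low-Spp1 beta cells it was at 18.5 CPM (95% interval 16.1 to 21.1), 9.75 CPM (9.24 to 10.3), 14.4 CPM (12.7 to 16.2) and 16.3 CPM (15.4 to 17.2). Delta cells had 59.1, 39.5, 80.2 and 63.4 CPM, all above every beta value, with log2 ratios of beta to delta cells of -1.63, -1.91, -2.40 and -1.90. Non-endocrine cells had 461, 473, 462 and 490 CPM, and this level differed by no more than 1.06-fold (of CPM + 1) between libraries although their cell types were mixed in different proportions. Alpha cells had 61.2, 12.7, 31.6 and 7.73 CPM, a spread of 7.12-fold that ran from the delta range to below the beta range. Ldha was thus highest in non-endocrine cells, and delta cells lay above beta cells in every library. Alpha cells overlapped the beta cells and, in library 1, reached the delta value (61.2 against 59.1 CPM).

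Every non-endocrine class with at least 20 cells in some library had Ldha. Pericyte-like cells had 1080, 970, 872 and 1193 CPM, fibroblast-like cells 858, 871, 733 and 1050 CPM, and macrophage-like cells 835, 537, 766 and 410 CPM. Endothelial-like cells followed with 619, 407, 488 and 497 CPM, T cell-like cells with 733, 674, 577 and 587 CPM and ductal-like cells with 456, 372, 420 and 473 CPM. B cell-like cells had 219, 205 and 355 CPM in libraries 1 to 3 and dendritic-like cells 94.5, 81.7 and 58.4 CPM. Acinar-like cells, seen in libraries 1 and 3, had 79.0 and 36.4 CPM, which is near the delta cell range. Thinned to 5000 UMIs, Ldha was seen in 67.7% to 72.3% of non-endocrine cells, 11.6% to 15.7% of delta cells and 3.09% to 4.72% of low-Spp1 beta cells, after 711, 90, 594 and 70 non-endocrine and 26, 18, 28 and 48 delta cells too shallow for this depth were left out. Before thinning the shares were 66.7% to 74.8%, 26.6% to 38.2% and 7.99% to 11.6%.

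**Figure D3:**
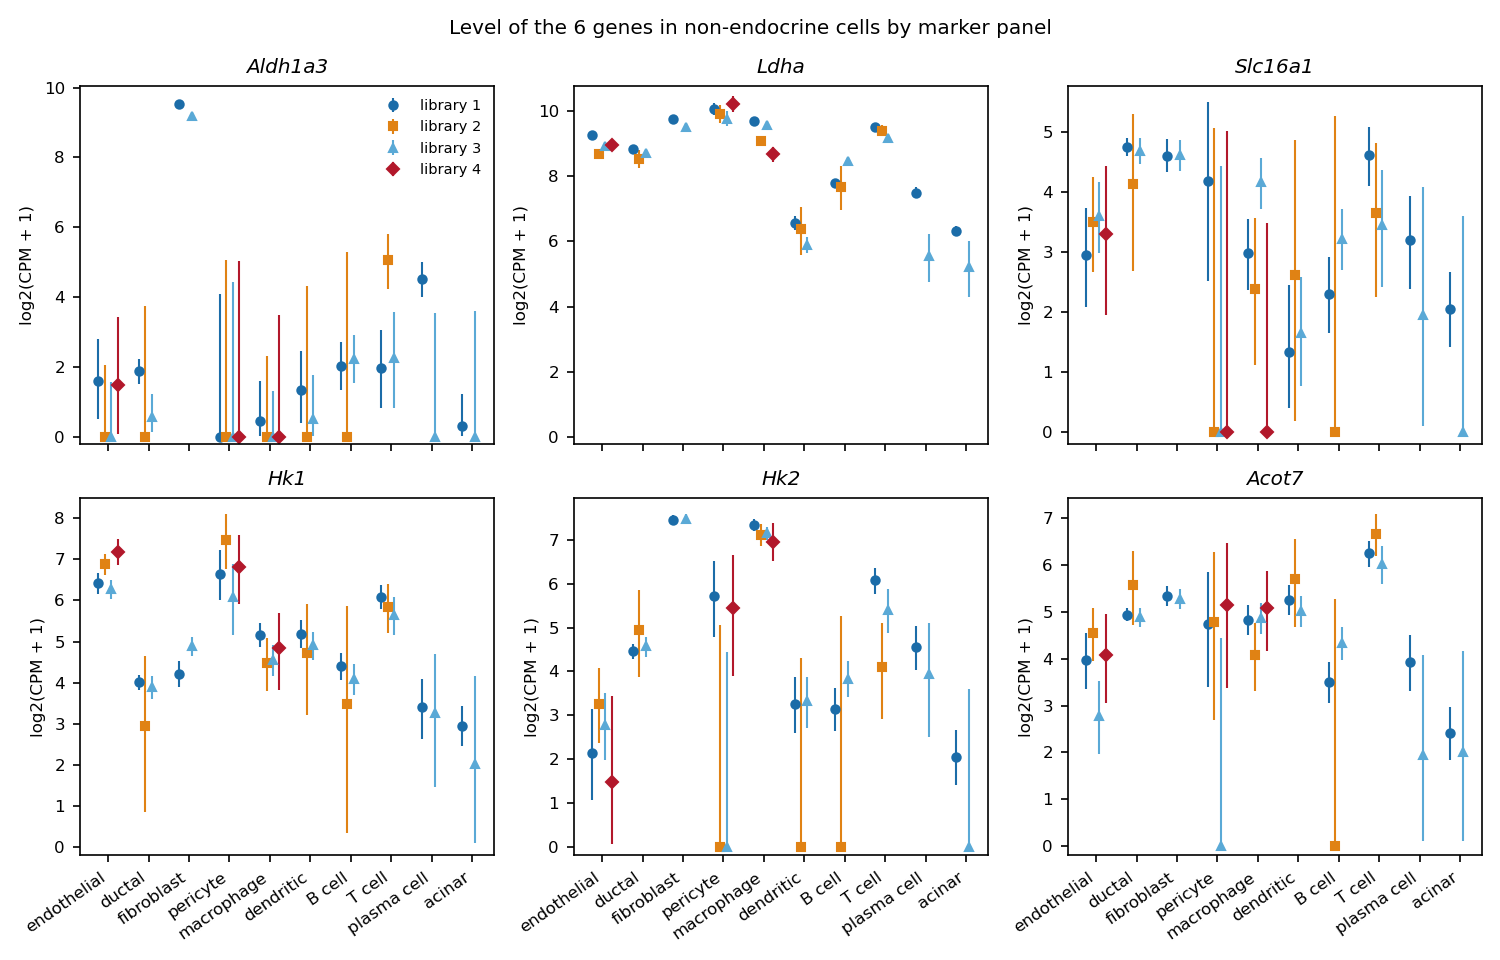
Levels of the 6 genes in non-endocrine classes set by marker panels, as log2(CPM + 1), with 1 point for each library that held enough cells of the class and its 95% Poisson interval. Aldh1a3 stands out in fibroblast-like cells, Hk1 in endothelial-like and pericyte-like cells and Hk2 in fibroblast-like and macrophage-like cells.

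The Ldha UMIs of beta cells sat in few cells. The highest 5% of low-Spp1 beta cells held 93.1%, 92.9%, 95.4% and 85.2% of them, and single cells reached 70, 39, 50 and 34 UMIs. In non-endocrine cells the highest 5% held 35.2%, 35.03%, 38.4% and 27.9%. Of all beta cells with at least 5 Ldha UMIs (25, 91, 17 and 97 cells), 24, 18, 12 and 8 carried 3 or more of the 6 markers of a non-endocrine class. Nearly all such cells of library 1 did so, but few of those of libraries 2 and 4.

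With the marker-carrying cells left out, Ldha in low-Spp1 beta cells was at 1.45, 8.24, 4.29 and 16.02 CPM. The cells left out were 12.4%, 4.29%, 14.4% and 2.66% of the low-Spp1 beta cells and held 93.6%, 19.3%, 76.2% and 5.29% of the Ldha UMIs. The level thus fell by most in libraries 1 and 3 and hardly moved in library 4, and the libraries then differed by more than before. In delta cells without such cells Ldha was at 13.0, 33.7, 42.9 and 63.1 CPM, still above the beta value of the same library in each case and past 2-fold. In alpha cells it was at 9.17, 3.93, 1.81 and 3.41 CPM, and the median log2 ratio of beta to alpha cells, -0.71 with all cells, was 0.91 without them. Whether these barcodes held more than 1 cell was not tested, and the panels were not specific in every class: Krt7, a ductal marker, was at 172 to 491 CPM in low-Spp1 beta cells. In delta cells Krt7 was at 295 to 345 CPM, the ductal marker Ehf at 173 to 207 CPM and the macrophage marker C1qa at 115 to 158 CPM. The other ductal markers were at most 36.5 CPM there and the other macrophage markers at most 51.9 CPM. Of the delta cells, 41.0%, 26.6%, 40.1% and 13.6% were left out as carrying a panel.

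**Figure D4:**
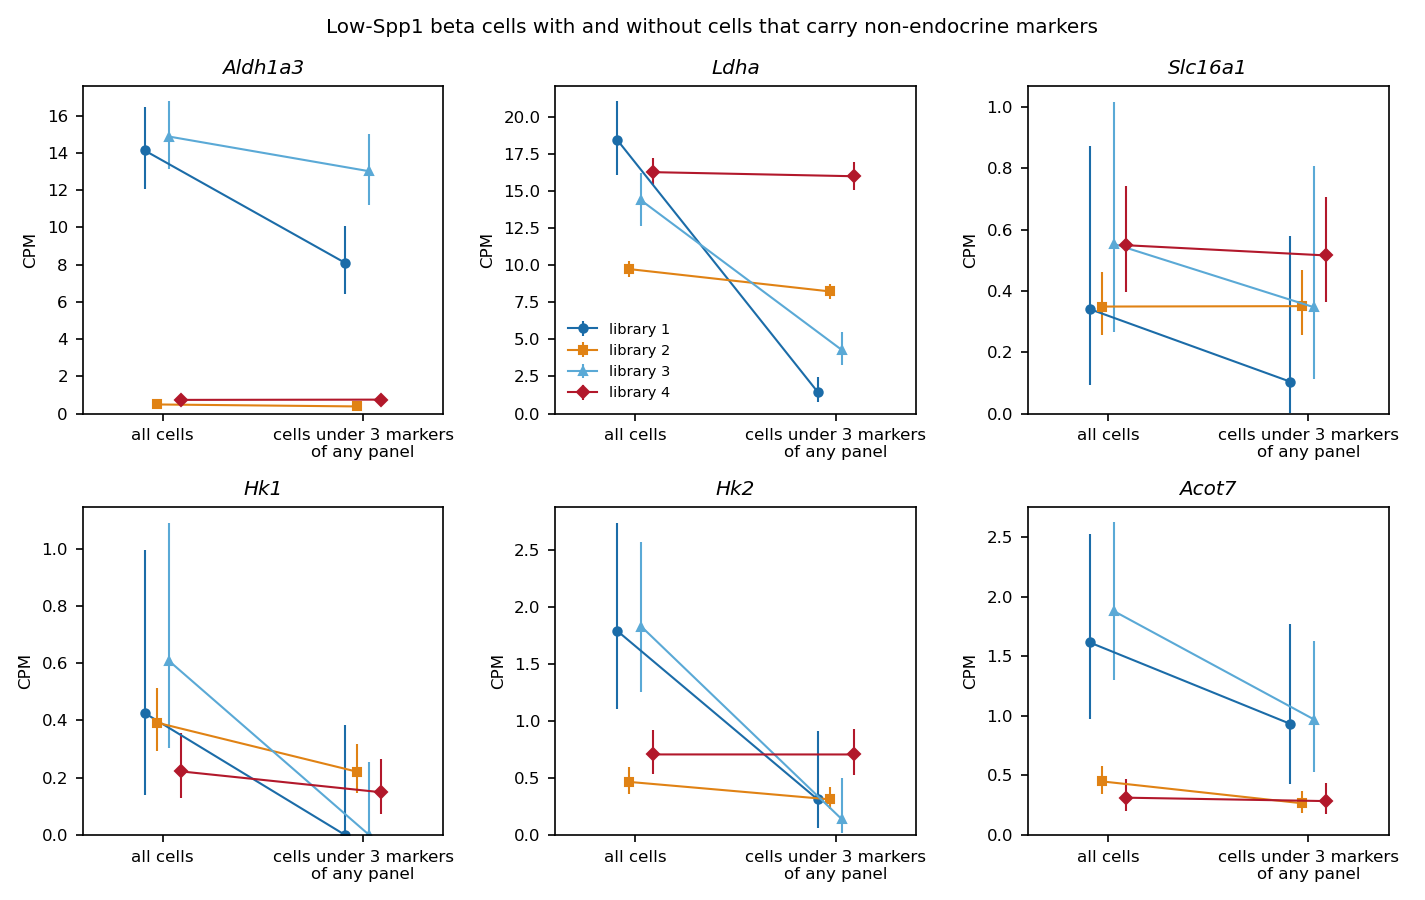
Levels of the 6 genes in low-Spp1 beta cells in CPM, over all cells and over cells with fewer than 3 markers of any non-endocrine panel, for each library with its 95% Poisson interval. Ldha drops from 18.5 to 1.45 CPM in library 1 and from 16.3 to 16.02 CPM in library 4.

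Slc16a1, which encodes the monocarboxylate transporter MCT1, was near the limit of counting in all endocrine classes. Low-Spp1 beta cells had 0.340, 0.349, 0.553 and 0.549 CPM, from 4, 48, 10 and 42 UMIs. Alpha cells had 3.47, 0.644, 2.41 and 2.45 CPM, from 11, 6, 10 and 20 UMIs. Delta cells had 1.12, 0.568 and 0.719 CPM in libraries 1 to 3, from 6, 4 and 6 UMIs, and 0 UMIs in library 4, which allows up to 0.520 CPM. The lowest alpha value lay above the highest beta value, but the log2 ratio in library 2 was -0.29, so the 2-fold rule was missed; without library 2 it was met (median -1.16). Non-endocrine cells had 15.7, 8.97, 15.8 and 11.3 CPM, all above every value of the beta, alpha and delta cells, and a pseudocount of 10 CPM ended this call (-0.87 in library 2). Ductal-like cells were among the highest, with 26.2, 16.6, 24.8 and 41.5 CPM.

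Among other transporters and dehydrogenases of lactate, delta cells differed from beta cells in Slc16a7, which encodes MCT2. It was at 37.1, 32.0, 48.1 and 28.6 CPM in delta cells and at 1.45, 0.313, 1.27 and 0.222 CPM in low-Spp1 beta cells, a median log2 ratio of -4.52. The groups were far apart in each library. Slc16a3, which encodes the lactate exporter MCT4, was at 21.4, 74.3, 15.5 and 118 CPM in non-endocrine cells and between 0.664 and 2.67 CPM in low-Spp1 beta cells. Ldhb, the other main subunit of lactate dehydrogenase, was at 3.32, 2.15, 3.87 and 2.00 CPM in low-Spp1 beta cells and lower than in non-endocrine cells by a median log2 ratio of -1.60, a call lost with the hormone genes left out of the totals.

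Acot7, a thioesterase that splits long-chain acyl-CoA into free fatty acid and coenzyme A, was higher in delta cells than in beta and alpha cells. In delta cells it was at 31.9 CPM (95% interval 27.3 to 37.0), 22.3 CPM (18.9 to 26.1), 41.0 CPM (36.7 to 45.5) and 24.6 CPM (20.7 to 29.0). In low-Spp1 beta cells it was at 1.62, 0.451, 1.88 and 0.314 CPM, and in alpha cells at 3.47, 0.644, 4.34 and 4.42 CPM. Delta cells were above both of these classes in every library, and the log2 ratio of beta to delta cells was -3.65, -4.01, -3.86 and -4.28. Alpha and beta cells overlapped. Non-endocrine cells, at 27.8, 30.8, 27.3 and 24.4 CPM, lay within the range of the delta cells. Their T cell-like members had 75.2, 100.01, 63.7 and 196 CPM, the last from 8 cells.

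Acot7 in delta cells was spread over many cells, as Hk1 was in alpha cells. It was found in 87, 122, 151 and 111 delta cells, or 40.1%, 29.5%, 46.9% and 28.4%, and the highest 5% of delta cells held 26.9%, 33.8%, 30.7% and 33.8% of its UMIs. At 5000 UMIs for each cell it was seen in 13.6%, 9.87%, 15.0% and 9.04% of delta cells and in 0.457%, 0.131%, 0.608% and 0.104% of low-Spp1 beta cells, the class that should lack it, where the shares before thinning were 6.01%, 1.69%, 5.35% and 1.16%; delta cells had a median depth of 14387 to 21976 UMIs before thinning. With marker-carrying cells left out, Acot7 in delta cells was at 31.6, 23.2, 44.3 and 24.2 CPM and Hk1 in alpha cells at 25.3, 16.7, 19.6 and 19.2 CPM. Both levels were close to those over all cells. In alpha cells, in contrast, Acot7 was then at 0, 0.476, 1.20 and 0.409 CPM.

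Aldh1a3 differed between libraries more than any other of the 6 genes in low-Spp1 beta cells. It was at 14.1 CPM (95% interval 12.1 to 16.4) in library 1 and 14.9 CPM (13.2 to 16.8) in library 3, and at 0.487 CPM (0.377 to 0.618) in library 2 and 0.732 CPM (0.553 to 0.950) in library 4. The spread was 10.7-fold (of CPM + 1), with no overlap of the intervals of libraries 1 and 3 with those of libraries 2 and 4. Acot7 was the other gene whose range reached 2-fold, at 2.19-fold, and 16.6% of 14193 genes had a range of 2-fold or more. Hk2, at 1.93-fold (log2 range 0.95), fell just short. It passed 2-fold with the hormone genes left out of the totals (log2 range 1.07) and under several other settings. With marker-carrying cells left out it did not pass, and Hk2 was at 0.311, 0.312, 0.138 and 0.705 CPM in libraries 1 to 4. Library 4 was then the highest and library 3 the lowest. The Acot7 range fell under 2-fold with marker-carrying cells left out (log2 range 0.64) and without library 3 or library 4 (both 0.99), whereas Ldha then reached a log2 range of 2.80 without marker-carrying cells. Libraries 1 and 3, with the higher Aldh1a3 and Acot7, were also those with more non-endocrine cells, and their genotypes are unknown. In the other classes, ranges of 2-fold or more were found for Aldh1a3, Ldha, Hk2 and Acot7 in high-Spp1 beta cells (11.2-fold, 4.54-fold, 2.21-fold and 2.38-fold; 37.5% of genes), for Ldha and Acot7 in alpha cells (7.12-fold and 3.30-fold; 7.56% of genes) and for Ldha in delta cells (2.01-fold; 9.83% of genes). In non-endocrine cells they were found for Aldh1a3 and Hk1 (2.75-fold and 3.05-fold; 32% of genes). High-Spp1 beta cells had too few UMIs of Slc16a1 and Hk1 for the rule, as did alpha cells for Aldh1a3, Slc16a1 and Hk2 and delta cells for Slc16a1 and Hk1.

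Aldh1a3 was not low in delta cells, where it was at 5.03, 10.5, 7.78 and 7.10 CPM, nor in non-endocrine cells, at 114, 41.6, 116 and 60.7 CPM. In alpha cells it was at 0.946, 0.751, 0.482 and 0.245 CPM, from 2 to 7 UMIs. Low-Spp1 beta cells of libraries 1 and 3 lay above the delta range, and those of libraries 2 and 4 lay below it and overlapped the alpha cells. With marker-carrying cells left out, delta cells had 7.28, 12.3, 10.03 and 7.29 CPM, and the beta cells of library 1, at 8.09 CPM, lay within that range. Fibroblast-like cells had 733 and 580 CPM in libraries 1 and 3 (138 and 140 cells) and 354 and 138 CPM in libraries 2 and 4 (5 and 7 cells). Macrophage-like and endothelial-like cells had at most 0.362 and 2.02 CPM, and pericyte-like cells had 0 UMIs in all 4 libraries. The Aldh1a3 of non-endocrine cells sat in few cells, with between 99.5% and 100% of its UMIs in the highest 5%.

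The marker sums of several non-endocrine panels were higher in the beta cells of libraries 1 and 3, as Aldh1a3 was. The 6 fibroblast markers summed to 36.5, 1.37, 37.4 and 1.49 CPM in low-Spp1 beta cells, each marker above 0 in these cells. The macrophage panel summed to 99.5, 16.6, 62.7 and 11.1 CPM, the ductal panel to 444, 180.2, 510.05 and 186 CPM and the dendritic panel to 4.09, 1.42, 22.8 and 0.640 CPM. The ductal sum was mostly Krt7, at 172 to 491 CPM in these cells. Ehf was at 5.09 to 13.8 CPM, and Krt19, Sox9, Cftr and Muc1 each at most 4.43 CPM. C1qa, at 9.64 to 58.6 CPM, carried much of the macrophage sum, and each other macrophage marker was at most 15.6 CPM. With all cells that carried 3 or more markers of any panel left out, Aldh1a3 was at 8.09, 0.381, 13.0 and 0.746 CPM, so libraries 1 and 3 stayed well above libraries 2 and 4. Vim, a mesenchymal gene, was at 2.28, 0.632, 10.5 and 0.271 CPM in the same marker-free cells, and at 267, 69.3, 218 and 19.99 CPM in the cells left out. The part of free RNA of other cells in the remaining Aldh1a3 was not tested.

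Aldh1a3 was found in 40, 34, 57 and 25 low-Spp1 beta cells, or 17.2%, 1.07%, 16.1% and 1.26%. At 5000 UMIs for each cell the shares were 4.57%, 0.0986%, 4.86% and 0.311%, against at most 0.454% of alpha cells in a library (at most 1.22% before thinning). Of the beta cells with at least 5 Aldh1a3 UMIs (14, 2, 16 and 1 cells), 6, 0, 4 and 0 carried a marker panel, with fibroblast as the leading panel in 5 of the 6 in library 1 and in 1 of the 4 in library 3, where ductal led in 2 and macrophage in 1.

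Aldh1a3-positive beta cells of libraries 1 and 3 were set beside the others of the same library, using low-Spp1 cells without a marker panel thinned to 10000 UMIs (11 against 165 cells and 14 against 244 cells). Cck, a gut peptide hormone gene that appears in dedifferentiating beta cells, was at 3118 CPM (95% interval 2797 to 3466) in the positive and 398 CPM (368 to 430) in the negative cells of library 1. In library 3 it was at 1586 CPM (1384 to 1809) and 389 CPM (365 to 414). The intervals were far apart in both libraries, though they cover counting error only and the cells of a library share 1 source. Spp1 was lower in the positive cells of both, at 45.5 against 894 CPM and 57.1 against 919 CPM. Mafa, a transcription factor of mature beta cells, was at 255 CPM (169 to 368) against 362 CPM (334 to 393) in library 1, where the intervals overlapped, and at 179 CPM (116 to 264) against 365 CPM (341 to 390) in library 3, where they did not.

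Ucn3, a peptide gene of mature beta cells, was at 18.2 CPM (2.20 to 65.7) against 32.7 CPM (24.6 to 42.7) in library 1 and had 0 UMIs, which allows up to 21.4 CPM, against 42.6 CPM (34.8 to 51.6) in library 3. Ins1 was lower in the positive cells of both, at 88409 against 106795 CPM and 73343 against 98386 CPM. For Slc2a2, Nkx6-1 and Glp1r the intervals overlapped in both libraries. Slc2a2, the glucose transporter, was at 36.4 against 41.2 CPM and 35.7 against 39.3 CPM, and Nkx6-1 at 136 against 145 CPM and 164 against 154 CPM. Ins2 took a median of 25.7% against 29.3% of the UMIs in library 1 and 29.5% against 25.7% in library 3. Vim had 0 UMIs, which allows up to 27.3 CPM, against 3.03 CPM and was at 7.14 against 9.02 CPM. Xbp1 overlapped in library 1, at 90.9 CPM (43.6 to 167) against 77.0 CPM (64.2 to 91.6), and was higher in the positive cells of library 3, at 179 CPM (116 to 264) against 63.1 CPM (53.5 to 73.9). Across all marker-free low-Spp1 beta cells Cck followed the libraries as Aldh1a3 did, at 573, 0.495, 535 and 0.488 CPM.

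None of the 6 genes passed the 2-fold rule in every library between high-Spp1 and low-Spp1 beta cells. Of 14261 genes, 0.154% did, or 22 genes (0.126% higher and 0.028% lower in high-Spp1 cells), so few genes of any kind passed. Of the genes called, 81.8% were higher in high-Spp1 cells, or 60% with the hormone genes left out of the totals. Ldha was at 24.7, 34.6, 6.85 and 22.7 CPM in high-Spp1 cells, with log2 ratios to low-Spp1 cells of 0.40, 1.73, -0.97 and 0.46: it was higher in 3 libraries and lower in library 3. Aldh1a3 was at 11.4, 0.737, 2.64 and 0.113 CPM, with ratios of -0.28, 0.22, -2.13 and -0.64. Without marker-carrying cells these high-Spp1 values were 3.54, 25.3, 3.11 and 20.1 CPM for Ldha and 2.04, 0, 2.41 and 0 CPM for Aldh1a3. Such cells made up 24.3%, 4.58%, 19.8% and 5.02% of high-Spp1 beta cells. In Hk2 the ratios were 0.62, 1.29, -0.54 and 0.72, again with library 3 alone below 0, and the medians of Slc16a1, Hk1 and Acot7 were 0.30, -0.01 and -0.16.

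Along finer steps of Spp1, the Aldh1a3 of libraries 1 and 3 lay at the low end. In beta cells with less than 0.05% Spp1 it was at 19.6, 0.545, 21.3 and 0.645 CPM, and between 0.05% and 0.25% at 1.57, 0.337, 1.10 and 1.37 CPM. The first step thus held a large difference between libraries. In the next step libraries 1 and 3 had only 3 UMIs each, with intervals of 0.323 to 4.57 and 0.226 to 3.21 CPM. These intervals lay below the first-step values of the same libraries. They overlapped those of library 2 (0.136 to 0.695 CPM) and library 4 (0.823 to 2.14 CPM). With so few UMIs, a smaller difference between libraries in this step could be neither shown nor excluded. Higher steps had few UMIs, with 4.83 CPM in library 3 from 23 UMIs and 0 UMIs in library 2 between 0.5% and 1% Spp1, apart from 27.1 CPM in library 1 between 1% and 2%, where 121 cells held 170 UMIs. Over all high-Spp1 beta cells of library 1, 172 of 195 Aldh1a3 UMIs sat in 9 cells that carried a marker panel. Ldha in libraries 2 and 4 was at 8.22 and 13.1 CPM under 0.05% Spp1 and at 32.9 and 32.7 CPM between 0.25% and 0.5%. Both libraries had similar values, 31.3 and 32.2 CPM, between 0.5% and 1%. Past 1% they parted: between 1% and 2% library 2 was at 36.5 CPM and library 4 at 2.15 CPM, from 5 UMIs in 63 cells. At 2% or more they were at 53.0 and 21.1 CPM, in 11 and 32 cells. Libraries 1 and 3 showed no such order up to 1%, with 17.1 and 18.0 CPM in the lowest step and 9.32 and 10.1 CPM between 0.5% and 1%. Library 1 was at 39.1 CPM between 0.05% and 0.25% and at 38.1 CPM between 1% and 2%.

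**Figure D5:**
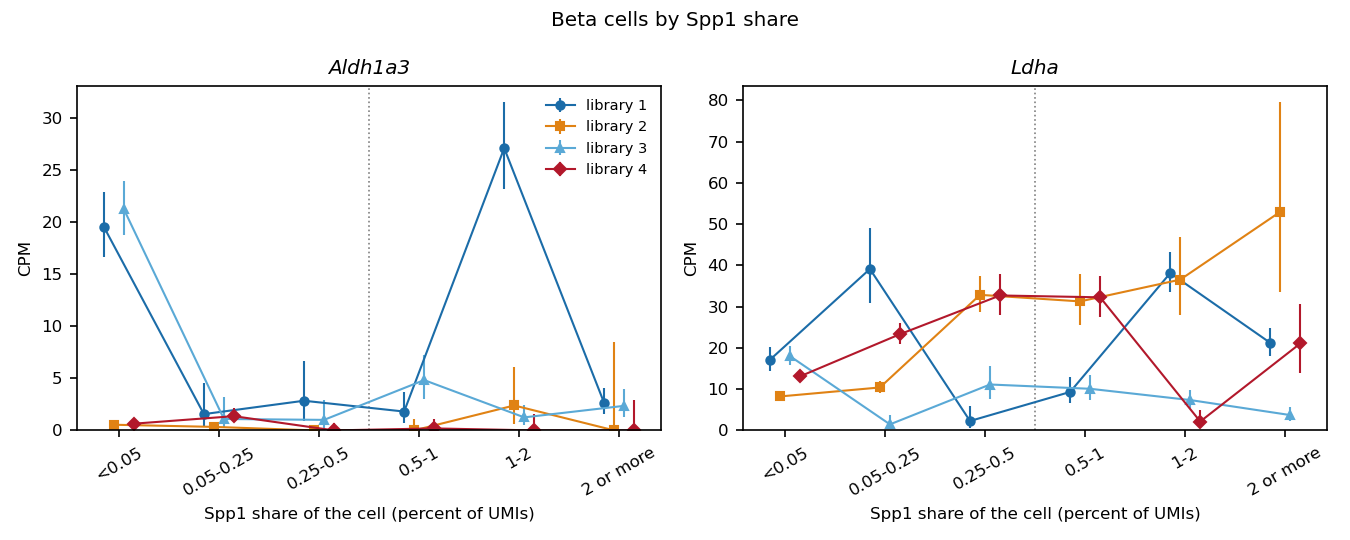
Aldh1a3 and Ldha in beta cells in CPM by the Spp1 share of the cell in 6 steps, with 1 line for each library, 95% Poisson intervals and a dotted line at the 0.5% cut. Aldh1a3 in libraries 1 and 3 is near 20 CPM in the lowest step and below 3 CPM in the next, with 1 high step in library 1 above the cut, on the side where 172 of its 195 Aldh1a3 UMIs sat in 9 marker-carrying cells.

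Genes related to the 6 were read in low-Spp1 beta cells by the same rule, from lists chosen by name. Against alpha cells 8.47% of all genes were lower and 2% higher, against delta cells 6.98% and 1.44%, and against non-endocrine cells 21.1% and 4.27%. Of 18 further disallowed genes, all 18 were lower in low-Spp1 beta cells than in non-endocrine cells (17 with the hormone genes left out), with a median log2 ratio of -3.93 beside -0.59 over all genes. Against alpha cells 14 of them could be tested, and 4 were lower and 0 higher, with a median of -1.06 beside -0.49; against delta cells 2 were lower, Smad3 and Tst. The largest difference from alpha cells was in Igfbp4, which encodes a binding protein of insulin-like growth factors, at 7.41, 0.748, 8.13 and 0.640 CPM in low-Spp1 beta cells and 126, 84.7, 59.3 and 106 CPM in alpha cells. Mgst1 and Oat had median log2 ratios of -2.91 each and Zfp36l1 of -2.17. Of 12 dedifferentiation and progenitor genes, 2 were lower in beta than in alpha cells and 0 higher: Fev, with a median of -3.05, and Hes1, a Notch target, with -1.54 and no longer called with the hormone genes left out. Their median of -0.56 was near the -0.49 over all genes. Against non-endocrine cells 2 were higher, Gast and Serpina7, and 3 lower, Sox9, Hes1 and Vim, with a median of 0.61 beside -0.59. Against delta cells the progenitor genes Neurog3 (-4.21), Sox9 (-3.71) and Hes1 (-1.85) were lower and Serpina7 (2.65) was higher.

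Of 12 genes of beta cell maturity, 7 were higher than in alpha cells and 1, the zinc transporter gene Slc30a8, was lower (8 and 0 with the hormone genes left out), 7 were higher than in delta cells and all 12 were higher than in non-endocrine cells. Ins1 led against alpha cells with a median log2 ratio of 6.004, followed by Mafa (5.24), Ucn3 (4.52) and the incretin receptor Glp1r (4.51). Of 17 glycolysis genes tested against alpha cells 2 were higher and 0 lower: Slc2a2 (4.83) and G6pc2 (3.86), the beta cell forms of glucose transporter and glucose-6-phosphatase. In the list of lactate and pyruvate genes 2 of 16 were lower than in alpha cells and 0 higher, or 1 lower and 4 higher (Mpc1, Pcx, Got1 and Mdh1) with the hormone genes left out. The median of this list, -0.47, and its share of lower genes were near those over all genes. Against delta cells Pcx (2.52), which encodes pyruvate carboxylase, and Gpd2 (1.89), of the glycerol phosphate shuttle, were higher in beta cells and Slc16a7 lower. Pdk4, a kinase that turns pyruvate dehydrogenase off, had the largest difference of that list: it was at 0.596, 0.777, 1.27 and 0.301 CPM in beta cells and at 90.8, 114, 90.7 and 110 CPM in alpha cells, a median of -5.93.

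Of 10 acyl-CoA genes 2 were lower than in alpha cells, Acot1 (-1.56) and Acot2 (-1.36), and neither with the hormone genes left out. Of 10 hypoxia genes 1 was lower, Higd1a (-4.82), a share near the 8.47% over all genes. The medians were -0.09 and -0.27, beside -0.49 over all genes. Of 5 retinoid genes 1 was lower, Rbp4 (-2.28), which is also a delta cell marker here and was not called with the hormone genes left out. Against non-endocrine cells, where 21.1% of all genes were lower, 6 of 12 hypoxia genes were lower (5 with the hormone genes left out). So were 4 of 8 retinoid genes (also 4) and 3 of 10 acyl-CoA genes (2). These medians were -1.47, -2.70 and -0.76, beside -0.59 over all genes. Aldh1a2, a paralog of Aldh1a3, was at 2.13, 0.0363, 3.32 and 0 CPM in low-Spp1 beta cells and at 40.0, 9.43, 56.8 and 8.92 CPM in non-endocrine cells, higher in libraries 1 and 3 in both classes. Aldh1a1 stayed between 0.105 and 0.170 CPM in low-Spp1 beta cells. Between high-Spp1 and low-Spp1 beta cells 0 genes of the 8 lists passed the rule.

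Over 44 points of class and library with at least 20 cells, the genes whose log2(CPM + 1) correlated most with each of the 6 were drawn from 11505 genes, and up to 3 of them are named for each. For Aldh1a3 these were Lypd1 (Pearson r = 0.83) and the collagen gene Col1a1 (0.81). For Ldha they were Pole4 (0.94), Ahnak (0.94) and Galk1 (0.93), for Slc16a1 Rrp8 (0.77), Sidt2 (0.77) and Mcm3 (0.75), and for Hk1 Wsb1 (0.91), Epb41l2 (0.89) and Skil (0.87). Hk2 was most like Lgals1 (0.87), Cndp2 (0.86) and Siva1 (0.86), and Acot7 most like Antxr2 (0.88) and Tubb5 (0.87). The points share libraries, hormone load and depth, so these values describe the profiles only.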

How the data were processed

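Dissociated islet cells of 4 samples were profiled with 10x single-cell RNA-seq. The authors deposited counts of UMIs for each gene and cell in 1 pooled matrix. Cell Ranger 6.1.2 is named in the file headers, and mm10 in the submitters' processing notes; the sources used here do not name the annotation. The members and lists were chosen with earlier results of these data known. Of the 6 genes all are named; of each list, up to 4 genes with the largest median ratio to alpha cells among those of 1 sign in all libraries; for likeness, 3 genes with the highest correlation among genes at 20 CPM or more in a point. A few genes that these rules select are not reported here. Other list genes are named where few were called, after their values were seen.

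Cells with at least 500 genes and at most 20% mitochondrial UMIs were kept: 3635 of 4129, 5268 of 7490, 3455 of 4008 and 3788 of 4360 barcodes, with median depths of 13287, 33052, 15759 and 27499 UMIs. Cells past several hormone cuts (87, 329, 162 and 235) and Ppy cells (at least 3%) were kept apart. No doublet caller was run. Non-endocrine classes needed 3 of 6 panel markers and a lead of 2 (acinar: 5% of UMIs) and were rebuilt here. UMIs were summed by class and library. A gene was tested with at least 50 UMIs in either class and called if CPM + 1 differed by at least 2-fold in the same direction in every library with at least 20 cells of both classes; no p-value was computed. Shares of cells carry exact Clopper-Pearson intervals, and an upper limit for a count of 0 uses 3 counts. Of the matrix's gene IDs, 32235 (99.8%) matched GENCODE M21, from which positions were taken. The rule was tried on simulated counts of 15652 genes for low-Spp1 beta against alpha cells. It called 100% of genes raised 4-fold, 98% of those lowered 4-fold and 0% of unchanged genes. These counts were Poisson draws around 1 alpha profile used for all libraries, without differences between libraries or cells. The changed genes were drawn above a minimum level in alpha cells, so the simulation covers counting error only and leaves out changes in the lowest genes. Python 3.11.15, numpy 2.4.6, scipy 1.17.1, pandas 2.3.3 and matplotlib 3.10.9 were used. Alternatives varied the cell filter, hormone and Spp1 cuts, pseudocount, minimum of UMIs, totals, thinning depth, marker-carrying cells and libraries; keeping cells past several hormone cuts was chosen after seeing the data.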

Additional observations from a re-analysis of the deposited data

Results flagged for a closer look

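Cells outside the comparisons held UMIs of the same genes, above the level that a count of 0 allows in every library. In cells past the Ppy cut (21, 74, 35 and 57 cells) Hk1, the hexokinase found in alpha cells, was at 11.4, 12.7, 8.03 and 6.83 CPM in libraries 1 to 4, between the beta and the alpha values of each library. In cells past several hormone cuts, which may hold RNA of more than 1 cell, Hk1 was at 4.05, 5.29, 3.98 and 4.72 CPM and Hk2 at 2.93, 1.98, 2.73 and 2.17 CPM. Acot7, high in delta cells, was at 11.5, 4.06, 13.2 and 7.02 CPM in the cells past several cuts. Ldha was at 16.2, 14.6, 26.3 and 19.9 CPM there. Aldh1a3 was at 7.20, 3.49, 5.96 and 3.96 CPM, so that the gap between libraries 1 and 3 and libraries 2 and 4 was smaller than in low-Spp1 beta cells.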

How the results depend on the processing

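Of 2901 values recomputed under another setting, 2422 stayed within the error or spread of the reported value, or within 1.5 times for a count, 479 moved further and 0 of the values with the same sign in every library reversed. The count of the 6 genes with a range of at least 2-fold over libraries in low-Spp1 beta cells was 2. It was 1 with a pseudocount of 10 CPM, and 4 with a pseudocount of 0.1 CPM, an Spp1 cut of 0.25% or a 1.5-fold rule. It was 3, with Hk2 added, when the hormone genes were left out of the totals, and 1 to 2 with a library left out. The count that differed from alpha cells, 1, was 1 to 2 with a library left out. Against delta cells 3 genes passed with any library left out and 2 with marker-carrying cells left out, under averaging of single-cell CPM or with a pseudocount of 10 CPM; Hk1 was added with a pseudocount of 0.1 CPM (4). Against non-endocrine cells the count was 6, and 5 with a pseudocount of 10 CPM. Of 120 levels, 59 moved past their interval with hormone genes left out of the totals, 46 under averaging of single-cell CPM, 45 with marker-carrying cells left out and 0 with the stricter cell filter. The median log2 ratio of Ldha in beta against alpha cells, -0.71 and not called, was 0.91 with marker-carrying cells left out and 0.70 under averaging of single-cell CPM. Ratios between classes were taken within each library, but no paired test was run. The libraries carry no sample labels, so they could not be compared by genotype. Depth limits Slc16a1, Hk1, Hk2 and Acot7 in low-Spp1 beta cells, where they rest on 4 to 34 UMIs in libraries 1 and 3.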
